A study of Mus musculus with 38 samples.

Results

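Promoter activity in the soleus muscle of fasted, cool mice was compared with that of fasted, warm mice. The Mid group held 8 male C57BL/6J mice of about 8 weeks kept at an ambient temperature (*TA*) of 20 °C, and the HiT group held 4 male C57BL/6J mice of the same age kept at 32 °C. In both groups the food was removed at zeitgeber time (ZT) 0 of day 2 and the muscle was dissected at ZT 22. A cool fast of this kind brings mice into torpor, whereas the HiT mice did not enter torpor. The comparison thus addresses what a fasted muscle looks like with and without a cool fast that leads to torpor. By the study, oxygen consumption at sampling was lower in the HiT than in the Mid group. The study describes the Mid mice at sampling as torpid or between bouts of torpor. *TA* and torpor differ together between the groups and cannot be told apart here. The Mid mice belonged to the test of reversibility and the HiT mice to that of torpor prevention, and whether they were sampled on the same days is not given in the sources used here. These 12 libraries, 1 per mouse, are 12 of the 38 of the series and belong to its first sequencing run. All 10819 deposited promoter clusters were members of the comparison, of which 10776 had a tag in the 28 libraries of that run.

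The labels name the groups torpor (Mid) and high temperature (HiT), and the text of the record has the HiT mice fed, while the study's methods describe them as fasted. The methods were followed, and genes of the food state were read as a check. *Pdk4*, a kinase that shuts off glucose oxidation during fasting, stood at 5104, 3960, 4544 and 4594 CPM in the 4 HiT libraries and at 1717 to 5944 CPM (median 4903) in the Mid. Its means in the Dep, Pre, Post and Fed groups were 5101, 438, 227 and 442 CPM. Dep mice were fasted in the cool but kept from torpor by touch, and the other groups had food at sampling. Pre mice were sampled before the fast, and Post mice after torpor and the return of food. Fed mice were not fasted and were kept at the low *TA*. *Fasn*, the fatty acid synthase, stood at 3.94, 5.58, 3.90 and 4.33 CPM in the HiT and 3.11 to 26.7 CPM (median 9.24) in the Mid, against means of 83.1, 97.2 and 86.8 CPM in the Pre, Post and Fed. *G0s2*, an inhibitor of lipolysis, stood at 24.01, 38.6, 29.8 and 41.9 CPM in the HiT and 17.3 to 65.9 CPM (median 32.9) in the Mid, against means of 239, 246 and 146 CPM. By these genes the HiT libraries resembled the fasted groups and not the fed ones, and *Pdk4*, *Fasn* and *G0s2* did not pass the test between Mid and HiT (FDR 0.898, 0.0751 and 0.768). *Fasn* was called as higher in the Mid without Mid 7 (FDR 0.0423) or Mid 8 (FDR 0.0471), by a likelihood ratio test (FDR 0.0399) and by the Wald test of DESeq2 (FDR 0.0371).

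The nAnT-iCAGE method, cap analysis without amplification, counts the capped 5′ ends of RNA, so each tag marks a start of transcription and nearby starts form a promoter cluster. The Mid libraries held 23726836 to 31834199 tags in clusters and the HiT libraries 28416006 to 30003804. Levels are given as CPM after TMM normalization, and a log2 fold change above 0 is an increase from the HiT to Mid. The 10 clusters with the most tags took 15.1 to 31.49% of the tags of a Mid library and 16.69 to 40.29% of those of a HiT library, with the highest share in HiT 4, where an unannotated cluster on chromosome 17 held more than in any other Mid or HiT library. HiT 4 and, for the fasting genes described later, Mid 6 stood apart from the other libraries of their groups. The counts of called promoters without both of them were 1759 up and 2194 down, against 2070 and 2352 with them. The soleus is a postural muscle that mixes slow and fast fibres, and all 10 slow and 15 fast fibre markers measured had tags in these libraries. *Myh7*, the slow myosin heavy chain, ranged 969 to 1464 CPM (median 1230) in the Mid and stood at 852, 930.1, 1068 and 947 CPM in the HiT.

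Torpor is a regulated drop of metabolism and body temperature that saves energy when food is short and the surroundings are cool. Skeletal muscle in a fast turns from glucose to fatty acids, breaks down its own protein through FOXO transcription factors and ubiquitin ligases, and slows growth and protein synthesis. Muscle also carries a program for mechanical strain and injury, in which stretch sensors, matrix genes, macrophages and dividing cells act together during remodelling.

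From the HiT to Mid, 2070 of 10776 promoters were up-regulated (19.2%) and 2352 were down-regulated (21.8%) at an FDR below 0.05. The up-regulated promoters lay at 1786 annotated genes and had a median log2 fold change of 0.44, and the down-regulated ones lay at 2171 genes with a median of −0.50. The median over all promoters was 0.02. Large differences were mostly decreases, since 451 down-regulated promoters but 130 up-regulated ones differed by more than 2-fold, and 71 against 16 by more than 8-fold. All 8 Mid libraries lay below all 4 HiT libraries at 1233 promoters (11.4%) and above them at 797 (7.4%). Of the 451 promoters lower in the Mid by more than 2-fold, the mean of the Dep group lay nearer to the Mid than to the HiT mean on the log2 scale at 92.0%, that of the Pre at 86.9%, that of the Post at 84.3% and that of the Fed at 84.0%. For the 130 higher in the Mid by more than 2-fold, the Dep mean lay nearer to the Mid at 119, whereas the Pre, Post and Fed means did so at 65, 52 and 66. These promoters were chosen on the Mid and HiT libraries themselves, so the shares describe where the other groups lie and test nothing.

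**Figure D1:**
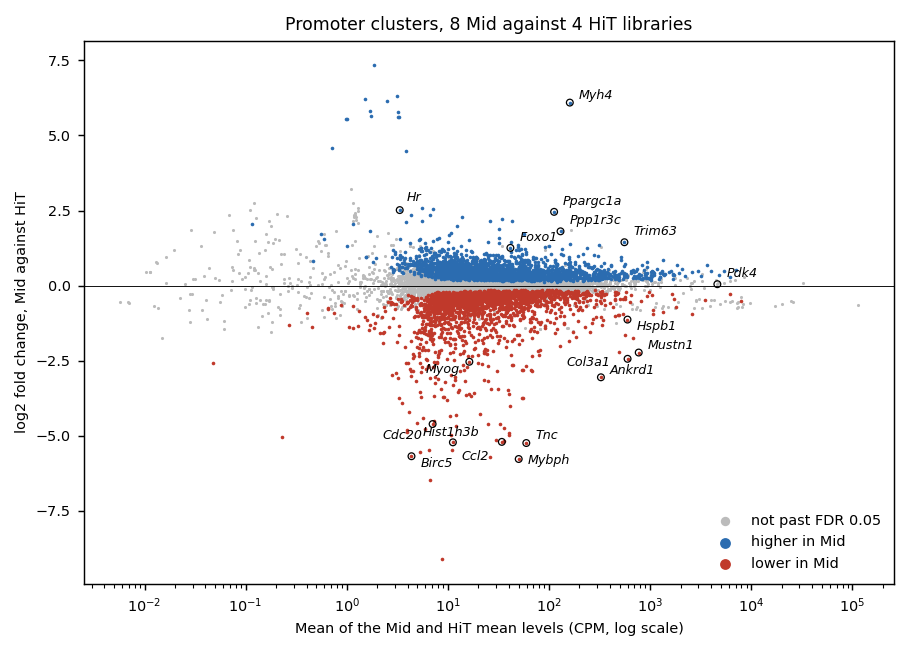
Log2 fold change of each promoter cluster, Mid against HiT, against the mean of the Mid and HiT mean levels (CPM, log scale). Red and blue points passed an FDR of 0.05, clusters with no tag in one of the groups are left out, and the decreases of *Mybph*, *Tnc* and *Birc5* reach below −5 while increases beyond 2.5 are few.

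Genes that mark mechanical strain and repair of muscle were lower in the Mid. Of 27 measured genes of mechanical load and muscle injury, 19 were lower in the Mid and 2 were higher, with a median log2 fold change of −0.82, where 23.4% of all genes measured were lower, 18.9% were higher and the median was 0.01. In 16 of the 27 all Mid libraries lay below all HiT libraries, against 1148 of all 9054 genes. The shares of all genes given here are the background for the lists below too. *Ankrd1*, a titin-associated stretch-response protein of the I-band, had 605, 665, 549.9 and 510.0 CPM in the HiT libraries and 57.5 to 112 CPM (median 64.8) in the Mid libraries. The groups did not overlap, and the HiT level was 8.29-fold higher (log2 fold change −3.05, SE 0.15, FDR 1.62e-13). *Mybph*, a myosin-binding protein of the thick filament, stood at 91.1, 110.0, 102 and 91.3 CPM in the HiT and only 0.386 to 7.04 CPM (median 1.11) in the Mid (log2 fold change −5.77, SE 0.57, FDR 1.67e-08). *Tnc*, the matrix protein tenascin-C that appears at sites of muscle injury and at the myotendinous junction, went from 142, 130.1, 62.3 and 131 CPM to 2.06 to 5.62 CPM (median 2.78) (log2 fold change −5.24, SE 0.28, FDR 5.48e-13). HiT 3 was the lowest HiT library for *Tnc*, but it still lay far above every Mid library. In the Dep, Pre, Post and Fed groups the means of *Ankrd1* were 78.4, 31.4, 45.7 and 52.8 CPM and those of *Tnc* were 3.42, 6.03, 5.61 and 6.59 CPM, so the HiT libraries were the high ones among all 6 groups.

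The promoters of *Ankrd1* and *Mybph* are shown because these genes had the smallest FDR and the largest decrease among the load genes and because both hold an MCAT element, the site of TEAD factors in muscle promoters. The element GGAATG, searched on both strands, is in capitals, and so is the NF-Y element CCAAT of *Ankrd1*, which lies on the opposite strand and is printed as its reverse complement. Sequences are from RefSeq (GRCm38.p6, the same build as mm10), written 5′ to 3′ along the gene, and end at the start base.
Ankrd1 (chr19:36119841-36119971, minus strand): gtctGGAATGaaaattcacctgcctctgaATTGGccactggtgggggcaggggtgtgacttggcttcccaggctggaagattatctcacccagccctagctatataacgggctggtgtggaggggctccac
Mybph (chr1:134193364-134193439, plus strand): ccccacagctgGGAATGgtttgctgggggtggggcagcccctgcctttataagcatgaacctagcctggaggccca
The MCAT letters begin 126 bases before the start of *Ankrd1* and 64 bases before that of *Mybph*. Among load genes with a RefSeq promoter, 6 of 19 (31.6%) held GGAATG in the 300-base window, against 11.2% of all 5767 promoters with a sequence and 11.3% of the down-regulated ones. A match of letters is a description of the window and not a site shown to be used.

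Other load genes differed less but still without overlap. *Mustn1*, a small nuclear protein of growing and regenerating muscle, stood at 1368, 1438, 1110 and 1173 CPM in the HiT and 196 to 369.6 CPM (median 255) in the Mid (log2 fold change −2.23, SE 0.14, FDR 9.04e-12). *Csrp3*, the muscle LIM protein of the Z-disc, *Xirp2*, an actin-binding repeat protein of the sarcomere, and *Flnc*, the muscle filamin, had log2 fold changes of −1.05, −0.89 and −0.50, though *Flnc* was not called without TMM (FDR 0.0731). *Ankrd2*, a paralog of *Ankrd1* that also binds titin, did not differ detectably (0.03, FDR 0.887), and neither did *Xirp1* (−0.03, FDR 0.906). The 2 members higher in the Mid were *Ttn*, titin itself (0.48, FDR 0.00498), and *Nrap*, a scaffold of developing myofibrils (0.35, FDR 0.000173).

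**Figure D2:**
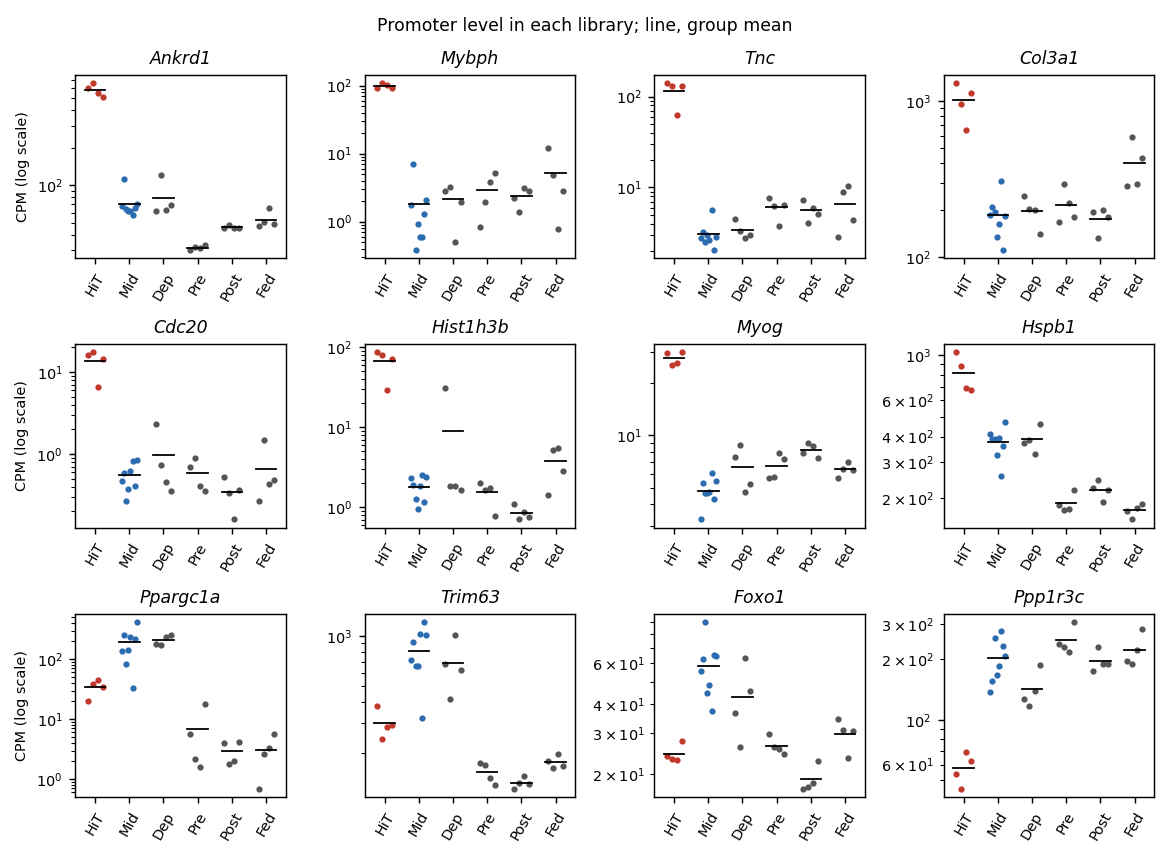
Level of 12 promoters in each library of the first run (CPM, log scale), by group, with HiT in red, Mid in blue and a black line at the group mean. *Ankrd1*, *Mybph*, *Tnc*, *Cdc20* and *Hist1h3b* are high in the 4 HiT libraries alone apart from 1 Dep library of *Hist1h3b*, *Ppargc1a* and *Trim63* are low in Mid 6, and *Ppp1r3c* is low in the HiT alone.

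Genes of the extracellular matrix were lower in the Mid as a group. Of 39 measured, 26 were lower and 1 was higher, with a median of −0.78. In 15 of them all Mid libraries lay below all HiT libraries, as in 1148 of all 9054 genes. *Col3a1*, the chain of type III collagen, had 1310, 953, 655 and 1127 CPM in the HiT and 112 to 307 CPM (median 186) in the Mid (log2 fold change −2.44, SE 0.22, FDR 4.94e-09). *Timp1*, an inhibitor of matrix metalloproteinases, had 17.7, 16.6, 9.85 and 13.5 CPM and 0.995 to 2.14 CPM (median 1.61) (log2 fold change −3.103, SE 0.27, FDR 1.69e-09). HiT 3 was again the lowest of its group for both genes, above all Mid libraries. The collagen chains *Col6a3* (−1.93, FDR 7.50e-09) and *Col5a2* (−1.59, FDR 2.64e-08) and the cross-linking enzyme *Loxl1* (−1.77, FDR 8.19e-10) moved in the same direction without overlap. *Col1a1*, the main chain of type I collagen, was lower by less (−0.70, FDR 0.021), and its HiT libraries at 2944, 2177, 1210 and 2544 CPM overlapped the Mid libraries at 931 to 2103 CPM (median 1343). Its call was lost without HiT 1 (FDR 0.125) or HiT 4 (FDR 0.0852). The basement membrane chains *Col4a1* (−0.22, FDR 0.0641) and *Col4a2* (0.02, FDR 0.911) did not pass, though *Col4a1* was called as lower without Mid 1 (FDR 0.0217) or Mid 3 (FDR 0.0433). *Lama2*, the laminin chain of the muscle basement membrane, was the member that was higher (0.33, FDR 0.0131), but not without TMM (FDR 0.0853).

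Markers of macrophages and fibroblasts moved with these genes. In a bulk muscle, fewer cells of a type and less RNA per cell cannot be told apart. Of 16 macrophage markers measured, 15 were lower in the Mid and 1, *Mertk*, was higher (0.79, FDR 0.00385). Their summed level was 222 to 688 TPM in the HiT (the deposited, depth-scaled values) and 86.4 to 127 TPM in the Mid, without overlap (difference −1.78 on the log2 scale, two-sided exact permutation test over 495 divisions, p = 0.00202, the smallest it can give, adjusted 0.0242 over 12 marker lists). The Dep, Pre, Post and Fed libraries together ranged from 61.9 to 156 TPM, so the HiT libraries alone were high. Defining markers were present in both groups, with *Csf1r*, the receptor of macrophage growth factor, at a mean of 15.4 CPM in the Mid and 42.8 in the HiT, and *Cd68* at 2.43 and 18.9. *Arg1*, an arginase of repair macrophages, had the largest decrease (−4.56, FDR 0.000898), and these markers were named with their values known. *Ccl2*, the chemokine that draws monocytes into tissue, was at 21.6, 22.2, 23.5 and 19.97 CPM in the HiT and at 0 to 1.26 CPM (median 0.547) in the Mid (log2 fold change −5.22, SE 0.54, FDR 2.94e-08). Of 10 fibroblast markers, 6 were lower and none was higher, and their sum was 1950 to 2780 TPM in the Mid and 2520 to 5970 TPM in the HiT (difference −0.56, exact permutation p = 0.0101, adjusted 0.0404). The part of these cells in the matrix and load results was not tested.

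The sum of 9 measured smooth muscle and pericyte markers was higher in the Mid, at 659 to 915 TPM against 422 to 726 TPM (difference 0.48, exact permutation p = 0.00808, adjusted 0.0404), with 5 members higher (3 without Mid 1, Mid 5 or HiT 2) and 2 lower. The sums of red blood cell (0.65, adjusted p = 0.0726), adipocyte (0.50, 0.121), slow fibre (0.34, 0.154), satellite cell (−0.31, 0.156), fast fibre (0.27, 0.211), endothelial (0.29, 0.216), tendon (0.05, 0.908) and Schwann cell markers (0.03, 0.943) did not pass an adjusted p of 0.05 in the same exact permutation test. The 4 neutrophil markers measured stayed below 1 TPM in sum in all Mid and HiT libraries. Dep 1, which enters every Dep mean, held 117 TPM of them. TPM values are lowered in HiT 4, where few clusters hold a large share of the tags.

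**Figure D3:**
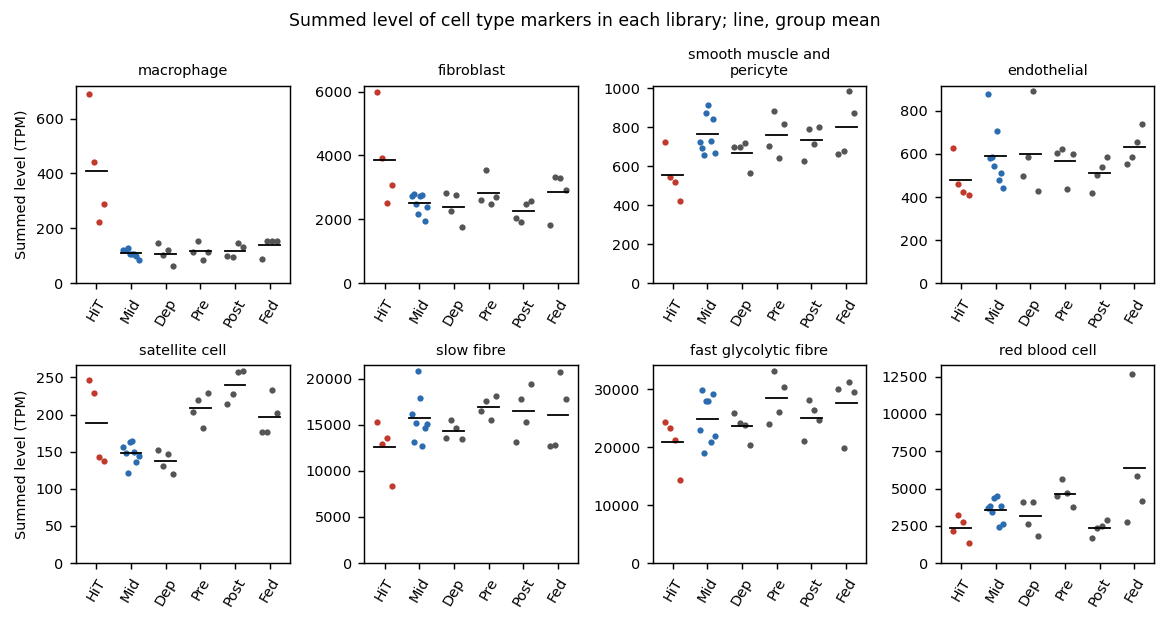
Summed level (TPM) of 8 lists of cell type markers in each library, by group, with HiT in red, Mid in blue and a black line at the group mean. The macrophage sums of the HiT libraries, 222 to 688 TPM, lie above those of all other groups, and the fibre and endothelial sums overlap.

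Genes of cell division were lower in the Mid. Of 33 listed, 9 were measured, of which 8 were lower (88.9%, against 23.4% of all genes) and none was higher, with a median of −1.44. In 7 all Mid libraries lay below all HiT libraries, against 1148 of all 9054 genes. *Cdc20*, an activator of the anaphase-promoting complex, had 16.01, 17.4, 6.52 and 14.4 CPM in the HiT and 0.270 to 0.855 CPM (median 0.525) in the Mid (log2 fold change −4.61, SE 0.43, FDR 6.44e-09). *Birc5*, which encodes survivin of the chromosomal passenger complex, had 11.1, 9.10, 5.04 and 9.01 CPM against 0.0344 to 0.271 CPM (median 0.153) (log2 fold change −5.68, SE 0.57, FDR 1.71e-08). *Ccna2*, cyclin A2, followed (−4.86, FDR 3.55e-06). HiT 3 held the lowest HiT level of all 3, and the mean of each was below 1 CPM in the Dep, Pre, Post and Fed groups too. *Mcm6*, a subunit of the replicative helicase, was lower by less (−1.16, FDR 9.78e-10). *Pcna*, the sliding clamp of DNA polymerase, was lower as well (−0.26, FDR 0.029), but not without Mid 2, 3 or 6 or HiT 1, 2 or 4 (FDR 0.0512 to 0.197). Its call was also lost without TMM (FDR 0.471) and in a fit to the 12 Mid and HiT libraries alone (FDR 0.08).

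The replication-dependent histone genes, whose messenger RNA is made during DNA synthesis, moved with them. This list was chosen after its values were seen. Of 58 such genes with a cluster, 54 were lower in the Mid (93.1%) and none was higher, with a median of −3.16. Of all genes, 23.4% were lower. In 45 of the 58 all Mid libraries lay below all HiT libraries, against 1148 of all 9054 genes. *Hist1h3b* had 86.2, 79.3, 29.4 and 70.99 CPM in the HiT and 0.963 to 2.58 CPM (median 1.89) in the Mid (log2 fold change −5.202, SE 0.55, FDR 4.20e-08). *Hist1h2ah*, an H2A gene of the same cluster on chromosome 13, had 59.7, 62.2, 23.3 and 60.2 CPM and 0.540 to 1.89 CPM (median 0.791) (log2 fold change −5.71, SE 0.61, FDR 5.20e-08). As in the division genes, HiT 3 was the lowest HiT library. Near-identical copies such as *Hist2h3c1* (−4.99) and *Hist2h3c2* (−4.92) can exchange tags in mapping, so single copies are uncertain. The 4 members that did not pass had high levels in every group, among them *Hist1h1c*, a linker histone, at means of 532 CPM in the Mid and 443 in the HiT, which was called as higher without Mid 6 (FDR 0.0258). In the Dep group the mean of *Hist1h3b* was 9.10 CPM, raised by 1 library.

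Promoters of division and histone genes are shown for the CCAAT elements they share, the site of NF-Y, which drives genes of the cell cycle. CCAAT on either strand and the TATA box TATAAA of *Hist1h3b*, 20 to 40 bases before the start, are in capitals.
Cdc20 (chr4:118437294-118437414, minus strand): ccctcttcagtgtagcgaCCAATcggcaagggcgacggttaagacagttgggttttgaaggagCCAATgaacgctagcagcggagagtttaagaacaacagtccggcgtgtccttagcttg
Hist1h3b (chr13:23752245-23752345, plus strand): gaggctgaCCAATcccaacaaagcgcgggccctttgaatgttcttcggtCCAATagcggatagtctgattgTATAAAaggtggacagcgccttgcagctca
Hist1h3c (chr13:23745520-23745670, minus strand): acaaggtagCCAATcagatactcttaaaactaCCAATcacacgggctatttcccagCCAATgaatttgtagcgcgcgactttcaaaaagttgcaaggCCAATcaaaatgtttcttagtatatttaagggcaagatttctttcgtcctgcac
CCAAT lay in the window of 43 of 52 histone genes (82.7%) and 7 of 8 division genes, against 39.8% of all promoters with a sequence. TATAAA stood at 20 of the 52 histone promoters (38.5%), at 33 of the 220 promoters lower in the Mid by more than 2-fold and at 2.97% of all. With the histone genes left out, 16 of 180 promoters lower by more than 2-fold held it (8.89%). So did 4 of 46 promoters higher in the Mid by more than 2-fold (8.7%).

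Muscle regulatory genes moved in both directions. Of 18 myogenic and neuromuscular genes, 7 were lower (38.9%) and 4 were higher (22.2%), with a median of −0.09 (−0.01 without TMM). The shares of all genes were 23.4% and 18.9%. *Myog*, the transcription factor myogenin of differentiating muscle cells, had 29.8, 25.4, 26.1 and 29.9 CPM in the HiT and 3.29 to 6.02 CPM (median 4.68) in the Mid (log2 fold change −2.54, SE 0.14, FDR 6.61e-13). The groups were far apart, and the means of the other groups were 6.55, 6.65, 8.23 and 6.35 CPM, near the Mid. *Myod1* (−1.76, FDR 3.01e-05) and *Myf6* (−0.97, FDR 2.41e-05), of the same family, and *Chrna1*, the alpha subunit of the acetylcholine receptor (−0.72, FDR 0.000672), were lower too, *Myod1* with Mid 6 inside the HiT range. *Musk*, the kinase that organizes the neuromuscular synapse, was higher (0.95, FDR 2.25e-06), as were *Mef2c* (0.50, FDR 2.11e-05) and *Mef2d* (0.53, FDR 0.000126).

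Immediate early genes, which are switched on within minutes of stimulation, and heat shock genes held calls in both directions. Their shares called as higher, 12.5% and 13.9%, lay below the 18.9% of all genes. Their shares called as lower were 41.7% and 36.1%, against 23.4% of all genes. Of 24 immediate early genes, 10 were lower and 3 were higher, with a median of −0.13 (−0.03 without TMM), and 12 had a fold change below 0. *Fos* had 7.77, 6.48, 10.6 and 9.16 CPM in the HiT and 1.92 to 5.29 CPM (median 2.70) in the Mid (log2 fold change −1.47, SE 0.26, FDR 8.29e-05), and *Junb* followed (−1.02, FDR 2.14e-07). *Jun* differed less (−0.63, FDR 1.69e-06), and *Ccn1*, a matricellular growth regulator, not detectably (0.03, FDR 0.901). Of 36 heat shock proteins and co-chaperones, 13 were lower and 5 were higher, with a median of −0.07 that became 0.03, with 3 lower and 4 higher, when scaled by library size without TMM. *Hspb1*, a small heat shock protein that protects the cytoskeleton, had 1029, 885, 690.1 and 677 CPM and 256 to 471 CPM (median 388) (log2 fold change −1.13, SE 0.12, FDR 5.28e-08). The Pre, Post and Fed means of *Hspb1* were 189.7, 221 and 175 CPM, below the Mid. *Cryab*, another small heat shock protein, was lower with overlap (−0.52, FDR 0.002), but not without TMM (FDR 0.0697). *Dnaja1*, a co-chaperone of Hsp70, was lower without overlap (−1.11, FDR 2.14e-07). *Hspa1a*, the inducible Hsp70, was higher (0.68, FDR 0.0139), though not without HiT 2 (FDR 0.055), and the constitutive *Hspa8* (−0.03, FDR 0.845) and *Hsp90ab1* (0.02, FDR 0.835) did not differ detectably. The heat shock element GAANNTTC stood in 12 of 24 promoters of the list and in 5.24% of all.

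Of 77 cytosolic ribosomal protein genes measured, 65 were lower, 1 was higher and 11 were not called, with a median of −0.32. The 65 made 84.4%, against 23.4% of all genes. Scaling by library size without TMM left 13 lower, with a median of −0.23. The member that was higher was *Rpl3l*, the striated muscle form of ribosomal protein L3 (0.40, FDR 9.76e-05). Its common counterpart *Rpl3* had the largest decrease of the list (−1.28, FDR 2.92e-06). *Rpl35a* stood at 34.95, 40.5, 33.7 and 32.8 CPM in the HiT and 18.9 to 24.9 CPM (median 20.1) in the Mid (log2 fold change −0.77, SE 0.08, FDR 3.55e-08). *Rps6*, the substrate of S6 kinase, stood at 39.6, 38.8, 39.95 and 33.9 CPM and 23.6 to 29.6 CPM (median 26.8) (log2 fold change −0.52, SE 0.07, FDR 1.38e-06), without overlap. The summed level of the 77 was 9737, 9786, 9141 and 9068 CPM in the HiT and 7424 to 8369 CPM in the Mid. The Pre and Post libraries reached 8434 to 9117 CPM and the Fed libraries 6805 to 7577 CPM, so the sums of the Pre and Post lay above those of the Mid and those of the Fed overlapped them. Of 76 mitochondrial ribosomal protein genes, 13 were lower and 8 higher, shares below those of all genes, and without Mid 2 or HiT 3 only 6 or 5 were lower. Of 43 translation factors, 11 were lower and 7 higher, against 1 and 1 without TMM. With TMM these were shares of 25.6% and 16.3%, near the 23.4% and 18.9% of all genes. *Eef1a2*, the elongation factor of muscle, was higher (0.40, FDR 0.000463), and *Eif1a* was lower (−0.74, FDR 9.69e-06).

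The start regions of 3 ribosomal protein genes are shown for the 5′ terminal oligopyrimidine (TOP) tract, through which mTOR controls the translation of these messenger RNAs. The pyrimidine run over the start base is in capitals.
Rps6 (chr4:86857351-86857375, minus strand): agtcgggCCTCTTTTTCgtgacgcc
Rpl35a (chr16:33056474-33056498, plus strand): ttgCCTTCCTCTTTCCgccatcttg
Rpl10a (chr17:28328577-28328601, plus strand): ctctgCCTTCTTTCCggtttccgcg
The runs are 10, 13 and 10 bases long. A run of at least 6 pyrimidines over the start base was found at 38 of 56 ribosomal protein promoters (67.9%), 58 of 1289 down-regulated promoters (4.50%), 8 of 1123 up-regulated ones (0.712%) and 2.57% of all. Most ribosomal protein genes were down-regulated, so the 58 include promoters of the 38, and the share among the down-regulated promoters is not a separate observation.

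Of 16 genes of ATF4 and the integrated stress response, 4 were lower and 5 were higher (8 without Mid 6). *Psat1*, an enzyme of serine synthesis, had 23.6, 16.1, 11.8 and 20.6 CPM in the HiT and 4.0 to 8.08 CPM (median 4.58) in the Mid (log2 fold change −1.79, SE 0.20, FDR 1.05e-07). *Mthfd2*, of mitochondrial one-carbon metabolism (−1.62, FDR 7.50e-09), and *Aldh18a1*, of proline synthesis (−1.58, FDR 3.32e-07), were lower too. *Ppp1r15a*, the phosphatase subunit that ends the response, was higher (0.64, FDR 0.00118). *Atf4* itself did not pass (0.26, FDR 0.0658) but was called as higher without Mid 3, Mid 6 or HiT 1 (FDR 0.0171 to 0.0283), by the Wald test of DESeq2 (FDR 0.039) and with its size factors (FDR 0.0493). Of 15 cholesterol genes, 6 were lower and none was higher, with a median of −0.08 that turned to 0.03 without TMM. *Srebf2*, the factor that activates this pathway, was lower (−0.57, FDR 0.00025). *Igf1*, the insulin-like growth factor, was lower with overlap (−1.23, FDR 0.00196).

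Genes for oxidative metabolism were higher in the Mid than in the HiT. Of 16 regulators of mitochondrial biogenesis, 12 were higher and none was lower (2 without Mid 3), with a median of 0.37. *Ppargc1a*, which encodes the coactivator PGC-1α, has an upstream start (chr5:51567615-51567874) and a downstream one (chr5:51553735-51554071) on the minus strand of chromosome 5. The upstream start had 19.9, 38.3, 45.8 and 34.8 CPM in the HiT and 32.6 to 417 CPM (median 181) in the Mid (log2 fold change 2.46, SE 0.57, FDR 0.00129), and only Mid 6, the lowest, fell within the HiT range. The downstream start had 19.02, 22.5, 17.9 and 22.8 CPM and 27.1 to 55.2 CPM (median 34.5) (log2 fold change 0.82, SE 0.15, FDR 7.92e-05), without overlap. The Pre, Post and Fed means of the upstream start were 6.92, 3.0 and 3.04 CPM, below every HiT library, and the Dep mean was 212 CPM. *Esrra* (0.69, FDR 0.000664) and *Esrrb* (1.004, FDR 6.39e-06), nuclear receptors that work with PGC-1α, and *Perm1*, a muscle partner of both (0.74, FDR 1.59e-05), were higher without overlap. *Tfam*, the packaging factor of mitochondrial DNA (−0.20, FDR 0.0558), and *Ppargc1b* (−0.48, FDR 0.11) did not pass. *Tfam* was called as lower without Mid 3, Mid 5 or Mid 7 (FDR 0.0401 to 0.0458), and *Ppargc1b* without Mid 6 (FDR 0.0257).

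Of 24 genes of the tricarboxylic acid cycle, 21 were higher (87.5%, against 18.9% of all genes) and none was lower, with a median of 0.31. Their summed level was 8342, 7907, 8987 and 8380 CPM in the HiT and 9095 to 11640 CPM in the Mid. It was 9907 to 11510 CPM in the Dep, 10670 to 10780 in the Pre, 9580 to 10690 in the Post and 8163 to 10440 in the Fed. *Ogdh*, of the 2-oxoglutarate dehydrogenase complex, had 264, 241, 256 and 260.3 CPM in the HiT and 309.5 to 428 CPM (median 369.9) in the Mid (log2 fold change 0.52, SE 0.07, FDR 1.74e-06). *Cs*, citrate synthase (0.29, FDR 0.000182), and *Pdha1*, of pyruvate dehydrogenase (0.49, FDR 2e-05), were higher without overlap, and *Sdhb* did not pass (0.13, FDR 0.244). Of 74 nuclear genes of the respiratory chain, 43 were higher and 1, *Atp5e*, was lower (−0.26, FDR 0.0447), with a median of 0.25. The call of *Atp5e* was lost when any library other than Mid 1 or HiT 1 was left out (FDR 0.0613 to 0.31) and without TMM (FDR 0.472). Scaling by library size without TMM left 20 members higher. *Atp5a1*, the alpha subunit of ATP synthase, had 2427, 2189, 2766 and 2496 CPM and 3236 to 3723 CPM (median 3514) (log2 fold change 0.50, SE 0.07, FDR 7.41e-06). *Uqcrfs1*, the iron-sulfur subunit of complex III (0.44, FDR 8.27e-06), and *Cox5a*, of complex IV (0.48, FDR 6.59e-06), moved alike, and the muscle-specific *Cox6a2* did not pass (0.19, FDR 0.0577) but was called as higher without Mid 2, Mid 3 or Mid 8 (FDR 0.0309 to 0.0489) and by DESeq2 (FDR 0.0103). The ERR element AAGGTCA lay in 7 of 58 respiratory chain promoters (12.1%) and in 2.74% of all. Each of these differences is small. In 19 of the 74 genes all Mid libraries lay above all HiT libraries, as in 641 of all 9054 genes. The summed level of the 74 was 52640, 56070, 61270 and 56330 CPM in the HiT and 61010 to 73690 CPM in the Mid. It was 66840 to 76400 CPM in the Dep, 72550 to 75030 in the Pre, 66530 to 73660 in the Post and 50560 to 67020 in the Fed. In this list and the tricarboxylic acid cycle, the Pre and Post sums lay above those of the HiT, and the Fed sums overlapped them.

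Of 41 genes of the fasting fuel switch and fatty acid oxidation, 19 were higher (46.3%) and 3 were lower (7.32%). None of the 3 was called without HiT 4. Of all genes, 18.9% were higher and 23.4% were lower. *Ppara*, the nuclear receptor that turns on fatty acid oxidation, had 28.3, 31.99, 31.9 and 32.5 CPM in the HiT and 55.5 to 93.8 CPM (median 68.6) in the Mid (log2 fold change 1.18, SE 0.13, FDR 7.81e-08), without overlap. *Cd36*, a fatty acid transporter (0.41, FDR 0.000285), *Lpl*, lipoprotein lipase (0.50, FDR 0.000184), *Pnpla2*, which opens lipid droplets (0.72, FDR 0.00123), and *Cpt1b*, the gate of fatty acids into mitochondria (0.36, FDR 0.00132), were higher by less. The fasting genes *Pdk4* and *Ucp3* did not differ detectably (0.23, FDR 0.442 for *Ucp3*). *Angptl4*, a fasting-induced inhibitor of lipoprotein lipase, was lower, with 109.7, 73.97, 66.6 and 118 CPM in the HiT against 23.3 to 92.2 CPM (median 39.8) in the Mid (log2 fold change −1.03, SE 0.37, FDR 0.0262). Its call was lost without HiT 1 (FDR 0.0778) or HiT 4 (FDR 0.0995), without TMM (FDR 0.0891) and with the replicate number as a block (FDR 0.185). Both groups of *Angptl4* lay above the Pre, Post and Fed means of 7.25, 5.92 and 11.8 CPM. Of 28 genes of glycolysis and glucose uptake, 14 were higher and 2 were lower (1 without HiT 1). *Hk2*, muscle hexokinase, had 114.9, 147, 134.9 and 122 CPM and 207 to 339 CPM (median 252) (log2 fold change 0.98, SE 0.11, FDR 1.38e-07). *Ppp1r3c*, which targets a phosphatase to glycogen, had 54.1, 45.5, 69.6 and 62.1 CPM and 137 to 277 CPM (median 196) (log2 fold change 1.81, SE 0.18, FDR 2.19e-08). Its means in the Dep, Pre, Post and Fed were 143, 249, 196 and 223 CPM, so the HiT libraries were the low ones. The glucose transporter *Slc2a4* was higher (0.49, FDR 1.32e-05), and *Eno1*, the enolase of non-muscle cells, was lower (−0.96, FDR 6.06e-07).

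**Figure D4:**
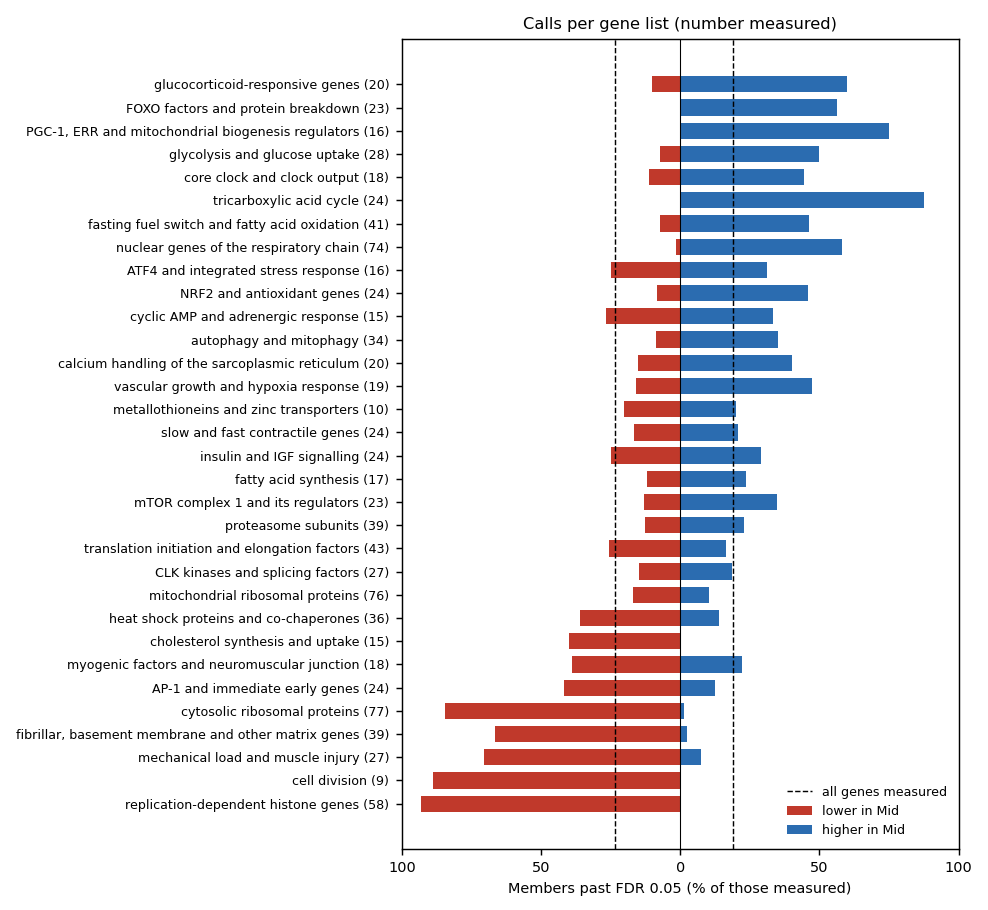
Share of the measured members of each gene list that passed an FDR of 0.05 as lower (red, to the left) or higher (blue, to the right) in the Mid, ordered by the median log2 fold change, with dashed lines at the shares of all genes (23.4% and 18.9%) and the number measured in parentheses. Tricarboxylic acid cycle genes reach 87.5% higher, and histone, cell division and cytosolic ribosomal protein genes reach 84.4 to 93.1% lower.

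Genes of muscle protein breakdown were higher where they were called. Of 23 FOXO factors and genes of this program, 13 were higher and none was lower, with a median of 0.46. The 13 made 56.5%, against 18.9% of all genes. *Trim63*, the ubiquitin ligase MuRF1 of atrophying muscle, had 382, 241, 283 and 293 CPM in the HiT and 321 to 1209 CPM (median 818) in the Mid (log2 fold change 1.44, SE 0.24, FDR 4.04e-05). Mid 6 was again the lowest Mid library, and it was the only one inside the HiT range. *Foxo1* had 23.9, 23.4, 22.97 and 27.8 CPM and 37.4 to 90.2 CPM (median 59.1) (log2 fold change 1.26, SE 0.20, FDR 1.60e-05), without overlap. *Fbxo32*, the ligase atrogin-1 (0.62, FDR 0.00429), *Fbxo40* (0.78, FDR 1.21e-06) and *Klf15*, a regulator of amino acid use (1.04, FDR 0.000855), were higher too. *Foxo3* did not pass (0.32, FDR 0.111) and was called without Mid 6 (FDR 0.0185).

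The promoter of *Trim63* is shown for the FOXO element TGTTTAC, in capitals with an MCAT element and the TATA box.
Trim63 (chr4:134314920-134315120, plus strand): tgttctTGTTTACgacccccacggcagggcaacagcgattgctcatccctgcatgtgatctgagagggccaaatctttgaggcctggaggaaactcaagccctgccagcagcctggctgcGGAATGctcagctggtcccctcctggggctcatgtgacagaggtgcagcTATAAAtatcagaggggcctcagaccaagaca
The FOXO letters begin 194 bases before the start. They lay in 1 of 14 promoters of this list and in 2.55% of all.

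Of 34 autophagy genes, 12 were higher (35.3%) and 3 were lower (8.82%), against 18.9% and 23.4% of all genes. *Bnip3*, a mitophagy receptor (0.69, FDR 0.000117), *Sqstm1*, the adaptor p62 (0.60, FDR 0.000287), and *Map1lc3a*, of the autophagosome membrane (0.47, FDR 7.76e-05), were higher, and the lysosomal protease *Ctsb* was lower (−0.41, FDR 0.000146), though not without TMM (FDR 0.0683). Of 39 proteasome subunits, 9 were higher (23.1%) and 5 were lower (12.8%), against 18.9% and 23.4% of all genes. The lower ones included the immunoproteasome subunit *Psmb8* (−0.98, FDR 3.71e-05) and the activator *Psme2* (−0.56, FDR 2.40e-05), and the higher ones *Psmd8* (0.42, FDR 0.00011) and *Psmc1* (0.41, FDR 2.52e-05) of the regulatory particle. Of 23 genes of mTOR complex 1, 8 were higher (5 without HiT 2) and 3 were lower. *Ddit4*, an inhibitor of this complex, had 10.7, 3.55, 13.5 and 5.74 CPM in the HiT and 6.70 to 43.9 CPM (median 22.8) in the Mid (log2 fold change 1.504, SE 0.40, FDR 0.00386), with overlap.

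Hormone and clock genes were higher in part. Of 20 glucocorticoid-responsive genes, 12 were higher and 2 were lower (none without HiT 1), with a median of 0.62. *Sgk1*, a kinase induced by steroids, had 30.6, 25.3, 33.2 and 24.9 CPM in the HiT and 50.95 to 92.4 CPM (median 67.95) in the Mid (log2 fold change 1.28, SE 0.15, FDR 1.33e-07). *Klf9* had 95.5, 82.7, 77.6 and 85.5 CPM and 111 to 229.5 CPM (median 174) (log2 fold change 1.04, SE 0.13, FDR 5.64e-07), and *Glul*, glutamine synthetase, followed (1.104, FDR 0.000711). *Fkbp5*, a chaperone of the receptor, was higher with overlap (0.95, FDR 0.00075). The metallothioneins *Mt1* (0.22, FDR 0.613) and *Mt2* (−0.07, FDR 0.915), which also respond to steroids, did not differ detectably, and *Mt2* spread from 40.2 to 1131 CPM (median 299) in the Mid. Of 18 clock genes, 8 were higher (44.4%) and 2 were lower (11.1%) at this single time of day. *Cry2* (0.84, FDR 2.40e-05) and *Nr1d2* (0.55, FDR 6.45e-05), repressors of the clock, *Arntl*, its activator BMAL1 (0.47, FDR 7.77e-05), and *Tef*, an output factor (0.92, FDR 0.000219), were higher without overlap. *Bhlhe40*, a repressor that also answers to hypoxia and stimulation, was lower (−1.104, FDR 1.88e-06), with HiT libraries at 34.3, 34.3, 31.6 and 29.8 CPM and Mid libraries at 10.1 to 25.2 CPM (median 13.8). *Dbp* did not pass (0.12, FDR 0.463).

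Of 24 NRF2 and antioxidant genes, 11 were higher (45.8%, with 7 higher without HiT 2) and 2 were lower (8.33%, with 1 lower without HiT 1). Of all genes, 18.9% were higher and 23.4% were lower. *Gclc*, the first enzyme of glutathione synthesis (1.02, FDR 0.00181), and *Nqo1*, a quinone reductase (0.84, FDR 1.80e-05), were higher. *Hmox1*, heme oxygenase, did not pass (1.33, FDR 0.118), and its Mid libraries spread 10.6 to 601 CPM (median 71.99) around HiT values of 49.7, 75.5, 52.9 and 42.5 CPM. Without Mid 6, the lowest, it was called as higher (FDR 0.0428). *Txn1*, thioredoxin, was lower without overlap (−0.59, FDR 4.81e-06). Of 19 vascular and hypoxia genes, 9 were higher (47.4%) and 3 lower (15.8%). *Egln3*, an oxygen sensor that marks hypoxia-inducible factors for breakdown, had 58.2, 48.3, 71.6 and 52.2 CPM in the HiT and 119 to 190.2 CPM (median 134.6) in the Mid (log2 fold change 1.32, SE 0.13, FDR 2.34e-08). *Vegfa*, the vascular growth factor (0.45, FDR 0.00128), and its receptor *Flt1* (0.78, FDR 0.001) were higher without overlap, and *Angpt1* was lower (−0.68, FDR 0.000479).

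Of 20 genes of calcium handling, 8 were higher and 3 were lower. *Atp2a2*, the slow-fibre calcium pump SERCA2, had 1708, 1262, 1618 and 1108 CPM in the HiT and 1748 to 3506 CPM (median 2024) in the Mid (log2 fold change 0.70, SE 0.17, FDR 0.00181). *Jph1*, which joins the T-tubule to the sarcoplasmic reticulum (0.85, FDR 9.84e-05), and *Ryr1*, the calcium release channel (0.40, FDR 0.000117), were higher without overlap. *Sln*, sarcolipin, a peptide that uncouples the pump and makes heat, was lower, with 294, 241, 318 and 225 CPM in the HiT against 84.2 to 243 CPM (median 149.5) in the Mid (log2 fold change −0.80, SE 0.23, FDR 0.00619). The Dep, Pre, Post and Fed means of *Sln* were 114.8, 211, 163 and 121 CPM. *Casq2*, a calcium store protein (−0.74, FDR 4.04e-05), and *Calr*, a chaperone of the endoplasmic reticulum (−0.87, FDR 6.23e-07), were lower as well. Among 24 contractile genes, 5 were higher and 4 lower, shares near those of all genes, and the number higher ranged from 3 without HiT 2 to 9 without HiT 3. *Myh4*, the fastest myosin heavy chain, had 5.53, 6.51, 2.62 and 3.72 CPM in the HiT and 5.72 to 969.8 CPM (median 183) in the Mid (log2 fold change 6.09, SE 1.48, FDR 0.00188). Its Mid levels spanned a far wider range than the HiT levels, the Dep, Pre, Post and Fed means were 132, 175, 75.3 and 672 CPM, and the other fast myosin *Myh1* did not differ detectably (0.06, FDR 0.787). *Actc1*, the cardiac and fetal actin, was lower (−1.58, FDR 2.30e-05).

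Among annotated promoters with at least 2 TPM, the largest fitted increase without overlap was at a second start of *Myh4* (chr11:67240556-67240834). It had 0.0567, 0.0689, 0.0379 and 0.151 CPM in the HiT, a few tags per library, and 0.193 to 19.4 CPM (median 3.81) in the Mid (FDR 0.00199). Mid 3, the lowest Mid library, lay just above HiT 4. The Dep, Pre, Post and Fed means were 3.1, 2.68, 1.17 and 10.45 CPM. The annotated increases that followed came from varied genes. *Hr*, a corepressor of nuclear receptors, had 1.08, 0.9996, 0.872 and 1.01 CPM in the HiT and 4.13 to 8.63 CPM (median 5.17) in the Mid (log2 fold change 2.51, SE 0.20, FDR 5.08e-10). *Lrrc52*, an auxiliary subunit of potassium channels, had 12.9, 11.4, 12.4 and 12.03 CPM and 42.96 to 81.9 CPM (median 53.9) (log2 fold change 2.204, SE 0.22, FDR 1.69e-08). *Arrdc2*, an alpha-arrestin, had 12.3, 6.96, 9.47 and 8.91 CPM and 13.6 to 59.6 CPM (median 46.6) (log2 fold change 2.16, SE 0.34, FDR 1.57e-05). The means of *Hr* were 4.18, 7.91, 5.84 and 10.3 CPM in the Dep, Pre, Post and Fed, so the HiT was low, whereas *Arrdc2* had 16.7, 6.78, 4.91 and 7.79 CPM, so the Mid was high. Others were *Slc30a2*, a zinc transporter (2.103, FDR 2.04e-07), *Abr*, a regulator of small GTPases (1.71, FDR 1.24e-07), and *Fam107a*, a glucocorticoid-responsive actin binder (1.69, FDR 2.46e-05). At the other end, *Crct1*, of the epidermal differentiation complex, had no tag in any Mid library and 38 to 209 tags in the HiT libraries. Its HiT mean of 3.39 CPM was at least 26.9-fold higher than a floor of 3 tags in the shallowest Mid library.

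Other lists held calls in both directions. Of 24 genes of insulin signalling, 7 were higher (29.2%) and 6 lower (25%), with 2 lower without HiT 1 and 3 without HiT 4. Fatty acid synthesis had 4 of 17 higher (2 without HiT 1, 7 without Mid 6 or Mid 8) and 2 lower (1 without HiT 1). The response to cyclic AMP had 5 of 15 higher (33.3%, but 2 without HiT 2 or HiT 4) and 4 lower (26.7%), where all genes had shares of 18.9% and 23.4%. Metallothioneins and zinc transporters had 2 of 10 in each direction, and splicing factors 5 of 27 higher and 4 lower.

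The cold-inducible RNA-binding proteins *Rbm3* and *Cirbp* were higher in the Mid. *Cirbp* had 49.3, 47.8, 48.4 and 54.8 CPM in the HiT and 55.7 to 80.1 CPM (median 68.6) in the Mid (log2 fold change 0.46, SE 0.09, FDR 0.000356), without overlap. *Rbm3* had 36.9, 31.3, 24.4 and 29.03 CPM and 36.01 to 49.2 CPM (median 41.1) (log2 fold change 0.46, SE 0.10, FDR 0.000407), with overlap. The means of *Rbm3* in the Dep, Pre, Post and Fed were 36.7, 42.4, 42.03 and 32.9 CPM, and those of *Cirbp* were 52.07, 58.85, 71.79 and 57.67 CPM. *Rtn3*, which was listed with them but is not an RNA-binding protein, did not pass (−0.16, FDR 0.194) but was called as lower without Mid 1 (FDR 0.0112).

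Some genes changed the use of their promoters rather than their level alone. Of 453 genes with more than 1 cluster at a mean of at least 1 CPM, 166 (36.6%) had clusters that changed by different amounts, and 22 of these had clusters called in opposite directions. *Prkg1*, the cyclic GMP-dependent kinase, has starts at 31765259 and 30625459 on the minus strand of chromosome 19. The downstream start held 78.1 ± 3.64% (SD, n = 4) of the gene's tags in the HiT and 19.2 ± 8.81% (SD, n = 8) in the Mid (gene-level FDR 2.27e-11). That start was lower, from 33.2, 36.2, 26.3 and 29.8 CPM to 0.921 to 4.78 CPM (median 1.93) (log2 fold change −3.69, SE 0.35, FDR 7.50e-09), while the upstream start did not differ detectably (0.16, FDR 0.277). *Rnh1*, the ribonuclease inhibitor, likewise lost use of 1 start, from 59.0 ± 8.11% in the HiT to 26.9 ± 4.38% in the Mid (FDR 1.64e-12). *Lsp1*, a leukocyte actin-binding protein, held 4 starts that were all lower, by log2 fold changes between −2.81 and −0.55 (FDR 1.47e-10). *Lsp1* is a gene of leukocytes, and the macrophage markers described above were lower as well. Whether the share of cells bears on the level or the shift of its starts was not tested.

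Structural and signalling genes shifted as well. *Plec*, plectin, which ties intermediate filaments to the Z-disc and the membrane, had 6 starts on the minus strand of chromosome 15. The start at 76229502 fell from 31 ± 2.37% of the tags in the HiT to 17.6 ± 1.47% in the Mid, and that at 76200594 rose from 34.9 ± 2.01% to 47.1 ± 1.88% (FDR 7.62e-26). These ranges of shares did not overlap, and in CPM the first start was lower (−0.88, FDR 4.52e-08) and the second higher (0.38, FDR 1.45e-05). *Tpm3*, slow tropomyosin, had 98.5 ± 0.42% of its tags at the most upstream start in the HiT and 99.4 ± 0.10% in the Mid, and a minor start fell from 1.28 ± 0.41% to 0.45 ± 0.07% (FDR 1.19e-17). *Cdh13*, the adiponectin-binding cadherin, raised the share of its downstream start from 7.92 ± 1.86% to 22.2 ± 5.11% (FDR 5.38e-11). *Atf3*, a stress-response transcription factor, used its upstream start at 191217942 for 69.4 ± 6.71% of tags in the HiT and 10.4 ± 12.8% in the Mid (FDR 7.26e-07). That start was lower in the Mid, at 0.396 to 8.47 CPM (median 0.692) against 24.2, 18.3, 36.8 and 15.6 CPM (log2 fold change −3.47, SE 0.62, FDR 7.88e-05). The start at 191183256 was higher (log2 fold change 0.77, SE 0.24, FDR 0.0135), though not without HiT 2 (FDR 0.0659), so the 2 starts of *Atf3* moved in opposite directions. *Ampd3*, an AMP deaminase, shifted to its downstream start, which held 60.6 ± 3.52% in the HiT and 82.1 ± 8.32% in the Mid (FDR 3.47e-07), with 19.1, 12.8, 17.8 and 14.8 CPM and 22.5 to 101 CPM (median 70.1) (log2 fold change 2.13, SE 0.25, FDR 2.48e-07).

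**Figure D5:**
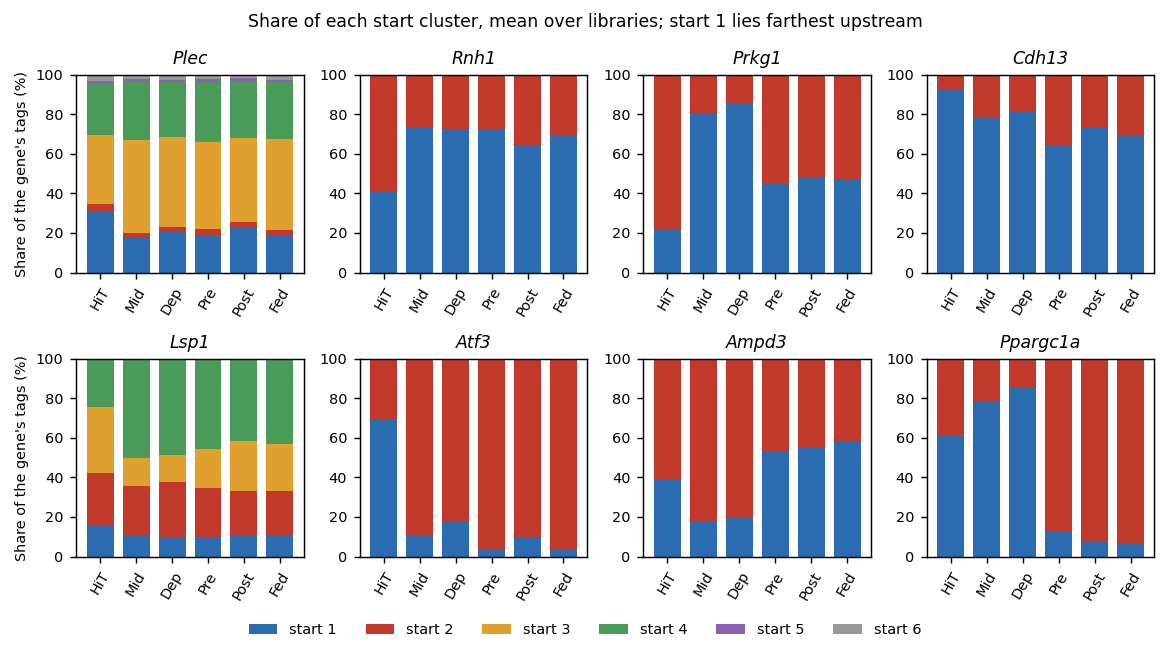
Mean share of each start cluster in the tags of 8 genes (%), by group, with start 1 farthest upstream in the direction of transcription. The upstream start of *Prkg1* and *Rnh1* and the downstream start of *Atf3* hold most tags in the Mid and a minor share in the HiT.

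Up-regulated clusters had a median width of 357 bp, down-regulated ones of 241 bp and those not called of 276 bp. Over the 5767 clusters matched to a RefSeq promoter, the median GC content of the 300-base window was 63.3% for up-regulated, 60.3% for down-regulated and 62.0% for all promoters. The cAMP response element TGACGTCA lay in 4.63% of up-regulated, 2.87% of down-regulated and 3.78% of all windows. Shares of the E-box CACGTG (10.7, 10.3 and 11.1%) and of the FOXO element (2.67, 2.56 and 2.55%) were close to each other. These shares were not tested.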

How the data were processed

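The authors mapped nAnT-iCAGE reads of soleus RNA to mm10 with BWA and HISAT2 (versions not given in the sources used here), clustered start sites over all samples and deposited raw tag counts per cluster without pooling replicates. The deposited TPM values are the same counts divided by all mapped tags of a library, of which 94.43 to 95.54% lay in the clusters. These TPM values were used for the sums of marker genes. All other values are from the counts.

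Clusters were assigned to GENCODE M21 genes whose 5′ end lay within 500 bp on the same strand (9615 clusters). A quasi-likelihood F-test of edgeR 4.0.16 (R 4.3.3) was applied after TMM normalization to the 28 libraries of the first run, with the groups as factor and the contrast Mid minus HiT, and promoters were called at a Benjamini-Hochberg FDR below 0.05 over all 10776 clusters. All FDR values of single promoters are from this test. No filter on low counts was applied. Promoter use was tested with diffSpliceDGE of edgeR over genes with at least 2 clusters of a mean of 1 CPM or more. A list was described over 1 cluster per gene (9054 genes), the one with the most tags. Marker sums were compared on the log2 scale, with a pseudocount of 0.1 TPM, by a two-sided exact permutation test over the 495 divisions of the 12 libraries.

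The text names the 12 annotated promoters with the largest change in each direction that had at least 2 TPM and no overlap between groups, up to 5 called members of each list with the smallest FDR and its 2 highest, the 6 genes with the smallest FDR of promoter use, and *Rbm3*, *Cirbp*, *Ppargc1a*, *Pdk4*, *Atf3*, *Sln*, *Ucp3*, *Angptl4*, *Fasn* and *G0s2*, or a selection of these. Named outside this rule, after their values were seen, were *Ankrd2*, *Arg1*, *Atp5e*, *Cd68*, *Chrna1*, *Col4a1*, *Col4a2*, *Col5a2*, *Cpt1b*, *Csf1r*, *Csrp3*, *Dbp*, *Fbxo32*, *Flnc*, *Foxo3*, *Hist1h1c*, *Hmox1*, *Hspa1a*, *Hspa8*, *Klf15*, *Lama2*, *Mertk*, *Myh1*, *Myh7*, *Myod1*, *Nrap*, *Pnpla2*, *Ppargc1b*, *Rpl3*, *Rpl3l*, *Sdhb*, *Tfam*, *Xirp1* and *Xirp2*. Some genes that the rule names are not reported here. The comparison, the lists and the rule were chosen with earlier results of these data known.

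Promoter windows of 250 bases before to 50 after the start were taken from RefSeq (GRCm38.p6) for the 5767 clusters whose peak lay within 100 bp of a RefSeq start, in place of windows from a genome, which was not used here. In these windows the base 2 after the deposited peak was a purine in 89.8% (plus strand) and 91.1% (minus strand) and the base before it a pyrimidine in 84.0% and 84.8%, as at start sites, so this base was taken as the start. This choice was made after the data were seen. Positions given for starts are the deposited peaks, counted from 1.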

Additional observations from a re-analysis of the deposited data

Results flagged for a closer look

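In 22 of 390 groups of values tested, over the 195 promoters of the genes named in the text, 1 library lay far from the other libraries of its group by Dixon's test (critical value 0.829 for 4 libraries, 0.526 for 8), and chance marks about 1 group in 20. Mid 6 was the library in 10 of the 22. It was low in the fasting genes *Pdk4* (1720 CPM against 4640 to 5940 in the other Mid libraries), *Trim63* (321 against 654 to 1210 CPM) and *Ampd3* (downstream start, 22.5 against 53.1 to 101 CPM) and in the downstream start of *Lrch1* (5.55 against 15.5 to 28.2 CPM). It was high in *Actb* (381 against 232 to 287 CPM), *Foxo6os* (27.3 against 12.3 to 17.5 CPM), *Myod1* (12.1 against 1.74 to 4.24 CPM), *Loxl1* (31.9 against 15.6 to 21.6 CPM), *Lsp1* (the start at 142471872, 7.49 against 2.09 to 3.54 CPM) and *Tnc* (5.63 against 2.06 to 3.27 CPM).

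Mid 3 was high in *Glul* (167 against 48.1 to 77.9 CPM) and *Tef* (91.1 against 46.8 to 62.8 CPM) and low in *Calr* (38.4 against 47.9 to 54.4 CPM) and *Psme2* (28.9 against 33.6 to 38.3 CPM). Mid 2 was high in *Ankrd1* (112 against 57.5 to 71.1 CPM) and Mid 1 in *Rtn3* (74.5 against 46.9 to 53.8 CPM). Among the HiT libraries, HiT 3 was low in *Tnc* (62.3 against 130 to 142 CPM), *Col6a3* (49.5 against 87.3 to 92.9 CPM) and *Hist1h2ah* (23.3 against 59.7 to 62.3 CPM), all still above every Mid library. HiT 4 was low in *Flnc* (792 against 993 to 1010 CPM), HiT 2 in *Pdha1* (385 against 449 to 463 CPM) and HiT 1 in *Ppara* (28.3 against 31.9 to 32.5 CPM).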

How the results depend on the processing

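Scaling by library size without TMM gave 1313 up-regulated and 1010 down-regulated promoters in place of 2070 and 2352, with the median over all clusters at 0.11 in place of 0.02, and 97 in place of 166 genes with a shift of promoter use. A minimum of 10 CPM left 216 genes to test for promoter use, of which 89 were called. The counts under a likelihood ratio test in edgeR, the Wald test and the size factors of DESeq2 1.42.0, upper-quartile scaling, filterByExpr and a fit to the 12 Mid and HiT libraries alone stayed within 1.5 times. Leaving out 1 library at a time gave 1669 to 2489 up-regulated promoters, 1901 to 2377 down-regulated promoters and 141 to 183 genes with a shift. Leaving out Mid 6 and HiT 4 together, an alternative chosen after seeing the data, gave 1759, 2194 and 149. Mid and HiT share the replicate numbers 1 to 4 in the labels, but same-numbered libraries did not deviate together (correlations −0.105, 0.00636, 0.106 and −0.266). These 4 pairs are too few to tell whether the numbers pair the mice. With the replicate number as a replicate block, 1880 promoters were up-regulated and 2091 down-regulated, and 155 genes shifted. Over the 195 promoters of the genes named, none reversed direction in 4095 refitted values, of which 53 lost a call and 32 gained it. With 4 HiT libraries and 23726836 to 31834199 tags per library, differences near the spread between mice, and levels of a few tags, were not resolved.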

Other observations

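The genes of this section were picked after their values were seen. The smallest FDR of all promoters was that of *Tubb6*, a beta-tubulin that appears in regenerating muscle fibres, with 145, 154, 101 and 129 CPM in the HiT and 25.9 to 33.1 CPM (median 30.3) in the Mid (log2 fold change −2.15, SE 0.10, FDR 4.64e-14). The groups did not overlap. Other cytoskeletal genes of non-muscle cells moved with it, among them *Actb*, the cytoplasmic beta-actin, with 1082, 894, 559 and 884 CPM and 232 to 381 CPM (median 261) (log2 fold change −1.65, SE 0.14, FDR 1.69e-09), and *Tuba1b* (−1.899, FDR 8.45e-08). *Postn*, the matricellular protein periostin (−1.698, FDR 2.88e-07), and *Cthrc1*, a secreted protein of collagen-producing fibroblasts (−3.55, FDR 6.57e-10), were lower too.

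Genes of antigen presentation by MHC class II were lower together. *Cd74*, the invariant chain, had 283, 204, 121 and 216 CPM in the HiT and 35.3 to 71.2 CPM (median 52.01) in the Mid (log2 fold change −2.01, SE 0.23, FDR 1.26e-07), and *H2-Ab1* (−2.66, FDR 2.52e-09), *H2-Aa* (−2.31, FDR 3.34e-08) and *H2-Eb1* (−2.104, FDR 5.10e-08) followed. The chemokines *Ccl6* (−2.82, FDR 6.57e-10) and *Ccl9* (−2.62, FDR 1.23e-09), which are made by myeloid cells, did the same. These genes belong to leukocytes, whose macrophage markers were lower in the Mid as described, and the share of cells in these values was not tested. *Rrad*, a GTPase of muscle that binds calcium channels, differed in another way, with 150.1, 98.1, 63.1 and 63.5 CPM in the HiT and 4.71 to 28.5 CPM (median 11.8) in the Mid (log2 fold change −2.801, SE 0.34, FDR 2.85e-07), and means of 56.6 and 50.5 CPM in the Pre and Fed that lay between them.

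Among the increases, the downstream start of *Lrch1*, a leucine-rich repeat protein, had 5.70, 4.72, 5.15 and 4.18 CPM in the HiT and 5.55 to 28.2 CPM (median 19.98) in the Mid (log2 fold change 1.996, SE 0.31, FDR 1.40e-05), with Mid 6 alone inside the HiT range and means of 1.31 and 1.86 CPM in the Pre and Fed. A downstream start of *Aifm2*, the ferroptosis suppressor FSP1, had 2.95, 1.93, 2.01 and 1.16 CPM and 4.87 to 14.3 CPM (median 8.81) (log2 fold change 2.16, SE 0.34, FDR 1.94e-05). *Foxo6os*, a noncoding RNA antisense to *Foxo6*, had 4.59, 4.51, 4.89 and 5.89 CPM and 12.3 to 27.3 CPM (median 15.6) (log2 fold change 1.75, SE 0.18, FDR 2.90e-08), and its Pre and Fed means of 31.7 and 32.7 CPM lay above both.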
